A study of Mus musculus with 120 samples.

Results

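The 949 windows described here are stretches of 1 kb in which DNA methylation was called different between App-NLGF and wild-type hippocampus at postnatal week 24. They are all the rows that the authors' deposited table assigns to hippocampus at that age, out of 8961 rows over 6 comparisons. Whole-genome bisulfite sequencing was made of hippocampus and blood of both genotypes at postnatal weeks 3, 8 and 24. The week 24 hippocampal comparison rests on 10 App-NLGF libraries, 5 male and 5 female, and 10 wild-type libraries with the same split, and the series' text says that sex entered the test as a covariate. In App-NLGF knock-in mice, APP_nlgf in the labels, the mouse App gene has been edited to encode human amyloid-beta together with the Swedish, Iberian and Arctic mutations, so amyloid forms without overexpression of the precursor protein. The wild-type mice lack these changes, and the labels state neither zygosity nor strain. They number the libraries within each sex and do not say that each is a separate animal.

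In mammalian DNA most methylation sits on cytosines that precede a guanine, written CpG. Methylation is dense over gene bodies and intergenic DNA and sparse at CpG-rich promoters, where its gain usually goes with silencing. Bisulfite treatment does not tell 5-methylcytosine from 5-hydroxymethylcytosine, which is abundant in neurons. For each window the table lists how far methylation differed, in percentage points, with raw and adjusted p-values, and it holds no methylation level, coverage or value for a single library. The depth behind a difference is therefore unknown, no spread between animals can be given, and no test over animals was made here. Expression is not measured by this assay, so the tissue label could not be checked against marker levels. A change in the mix of cell types and a change within cells cannot be told apart in such bulk tissue. A positive difference is taken to mean more methylation in App-NLGF. Only the name of the comparison gives this order, and each direction would turn round if it were the reverse.

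Called windows were rare and were spread singly over the genome. On the assumption of Benjamini-Hochberg adjustment, the ranks behind the adjusted p-values give about 2325773 windows tested, so 0.0408% were called. The windows numbered 556 higher in App-NLGF, or 0.0239% of those tested, and 393 lower, or 0.0169%. Every called window had an adjusted p under 0.1 and a difference of at least 10 points, and 1569 windows are estimated to have passed the first rule alone, of which 60.5% passed the second as well. The authors' deposited table puts the window nearest the size threshold at 10.01 points and the one nearest the other threshold at an adjusted p of 0.09997. No called window touched another. The smallest distance between neighbours was 3.0 kb and the median distance was 1910 kb. Gaps of at most 10 kb joined 3 pairs, of which 1 pair had windows of the same direction and 2 pairs had windows of opposite direction.

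A few windows lay at gene starts, and their promoters are shown because the number of CpGs in a stretch of DNA sets how many sites a window can measure. Promoters are 300 bases, with 250 before and 50 after the annotated start, taken from RefSeq on GRCm38.p6, which shares its coordinates with mm10. Slc7a11, which encodes the cystine and glutamate antiporter of glia, and Pdhx, a subunit of the pyruvate dehydrogenase complex, had windows just inside the gene. The window of Trpv1, the capsaicin receptor channel, covered 102 bases of its promoter, and that of Slc7a9, a cystine transporter of kidney and gut, covered 159 bases. The windows of Spata4, a gene of sperm development, Plb1, a phospholipase, and Kcnip3, a calcium sensor also called calsenilin or DREAM, covered the whole promoter shown. Sequences run 5′ to 3′ on the gene's strand, and capitals mark CpG.
Slc7a11, chr3:50443564-50443863, minus strand: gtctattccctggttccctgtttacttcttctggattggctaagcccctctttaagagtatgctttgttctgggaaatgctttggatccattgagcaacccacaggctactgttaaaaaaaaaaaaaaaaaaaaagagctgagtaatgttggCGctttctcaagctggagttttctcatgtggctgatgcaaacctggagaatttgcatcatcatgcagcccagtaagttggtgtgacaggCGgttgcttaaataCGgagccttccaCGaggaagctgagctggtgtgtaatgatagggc
Pdhx, chr2:103073464-103073763, minus strand: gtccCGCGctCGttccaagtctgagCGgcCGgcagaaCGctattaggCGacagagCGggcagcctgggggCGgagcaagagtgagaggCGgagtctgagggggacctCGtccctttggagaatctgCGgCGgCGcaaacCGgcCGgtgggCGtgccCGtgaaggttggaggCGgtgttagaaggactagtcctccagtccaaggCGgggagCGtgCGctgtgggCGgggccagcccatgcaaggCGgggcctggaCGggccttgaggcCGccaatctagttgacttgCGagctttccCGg
Trpv1, chr11:73233899-73234198, plus strand: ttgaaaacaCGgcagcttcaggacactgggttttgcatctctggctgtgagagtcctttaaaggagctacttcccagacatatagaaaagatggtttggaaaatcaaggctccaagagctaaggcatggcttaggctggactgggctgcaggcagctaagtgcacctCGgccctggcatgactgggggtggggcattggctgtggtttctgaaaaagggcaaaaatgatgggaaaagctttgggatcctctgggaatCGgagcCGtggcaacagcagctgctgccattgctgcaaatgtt
Spata4, chr8:54600531-54600830, plus strand: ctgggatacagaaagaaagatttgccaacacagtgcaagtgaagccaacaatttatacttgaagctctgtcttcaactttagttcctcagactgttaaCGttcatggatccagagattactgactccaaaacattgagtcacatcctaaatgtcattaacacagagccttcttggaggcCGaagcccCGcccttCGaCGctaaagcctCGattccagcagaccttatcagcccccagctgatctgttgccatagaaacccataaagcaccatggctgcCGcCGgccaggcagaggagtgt
Slc7a9, chr7:35448842-35449141, plus strand: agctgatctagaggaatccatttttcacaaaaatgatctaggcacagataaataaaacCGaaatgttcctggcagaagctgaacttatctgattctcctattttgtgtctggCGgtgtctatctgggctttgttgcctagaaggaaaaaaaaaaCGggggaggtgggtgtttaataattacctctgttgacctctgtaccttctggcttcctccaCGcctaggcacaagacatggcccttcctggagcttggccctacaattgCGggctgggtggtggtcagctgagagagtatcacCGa
Plb1, chr5:32353330-32353629, plus strand: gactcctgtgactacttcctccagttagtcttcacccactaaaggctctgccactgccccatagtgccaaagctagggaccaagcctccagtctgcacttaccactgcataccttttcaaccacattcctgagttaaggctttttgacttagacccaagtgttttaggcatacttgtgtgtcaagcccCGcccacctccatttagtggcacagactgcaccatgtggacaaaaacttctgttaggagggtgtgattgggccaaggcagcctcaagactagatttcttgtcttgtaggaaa
Kcnip3, chr2:127521343-127521642, minus strand: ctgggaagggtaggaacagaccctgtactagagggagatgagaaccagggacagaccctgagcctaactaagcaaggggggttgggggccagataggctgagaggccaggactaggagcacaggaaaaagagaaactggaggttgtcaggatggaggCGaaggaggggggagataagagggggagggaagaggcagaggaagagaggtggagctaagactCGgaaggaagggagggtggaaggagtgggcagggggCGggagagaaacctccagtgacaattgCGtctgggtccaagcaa

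The Slc7a11 promoter held 4 CpGs, and its window, 613 bp downstream of the start, stood at 21.9 points (adjusted p 0.00165) in the authors' deposited table. The Pdhx promoter held 28 CpGs, more than the others printed, and the called window began beyond it, 513 bp downstream of the start. In the authors' deposited table this window stood at 17.8 points, and it also lay 675 bp upstream of a start of Apip, an enzyme of methionine salvage that is read from the other strand. The authors' deposited table gives Trpv1 a difference of -15.7 points, and 1 of the 4 CpGs of its promoter lay in the window. Slc7a9 stood at 14.9 points (adjusted p 0.00924) in the authors' deposited table, and 3 of the 6 CpGs of the promoter shown lay in the window. More than 1 start of Slc7a9 is annotated near it. Within the windows lay all 8 CpGs of the Spata4 promoter, the 1 CpG of Plb1 and all 4 of Kcnip3. The authors' deposited table gives 15.1 points at Spata4, -13.8 points at Plb1 and 11.8 points at Kcnip3, where the start covered is 1 of several annotated.

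Of 915 windows on chromosomes for which gene starts were at hand, 35 lay within 1 kb of a start. That is 3.83% of them (95% Clopper-Pearson interval 2.7 to 5.3, for the list and not for animals), beside 3.28% of all 1 kb windows of the genome. Of the 35 windows 23 were higher in App-NLGF and 12 lower. Named coding genes accounted for 18 of them, 12 higher and 6 lower, which served 20 genes because some windows lay near the starts of neighbouring genes. Among these, Rtl8c, a retrotransposon-derived gene on X, had 21.7 points in the authors' deposited table, and Map3k12, the stress kinase DLK of neurons, had 14.4 points. Akt2, a kinase of insulin signalling, stood at -15.5 points, and Ghrl, which encodes ghrelin, at -11.96 points in the authors' deposited table. A single window near the starts of Med22, a Mediator subunit, and of the ribosomal protein gene Rpl7a had -13.2 points in the authors' deposited table. Thoc2, a subunit of the mRNA export complex THO, had -12.8 points and an adjusted p of 0.000926 by the authors' deposited table. The other members of this group, Edc3, Aspg, Rcn3, Aknad1 and Rcan3, lay between 11.2 and 13.1 points, all higher in App-NLGF, in the authors' deposited table. The 25 starts of these genes that lay within 1 kb of a window had promoters with a median of 6 CpGs. The median was 13 over 21045 starts of coding genes, with a middle range of 4 to 25. Most of the 25 promoters lay wholly outside the called window, so these medians do not describe the CpGs of the windows. The CpGs of whole windows were not counted.

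Differences had a median size of 14.0 points, with a middle range of 11.96 to 17.3, and ran from -37.0 points to 40.8 points. The median size was 13.8 points among windows higher in App-NLGF and 14.3 points among windows lower. The share of windows with an adjusted p under 0.05 was similar across sizes. Of 244 windows between 10 and 12 points, 42.2% had an adjusted p under 0.05. The share was 46.5% of 316 windows between 12 and 15 points, 44.6% of 260 windows between 15 and 20 points, and 44.2% of 120 windows between 20 and 30 points. Under 0.01 were 6.1% of the windows between 10 and 12 points, 10.1% between 12 and 15 points, 10.4% between 15 and 20 points and 12 of the 120 windows between 20 and 30 points. The median size was 14.85 points among the 87 windows with an adjusted p under 0.01 and 16.44 points among the 17 under 0.001. Higher windows outnumbered lower ones in each of these size classes. They made up 60.7% (54.2 to 66.8) of those between 10 and 12 points and 61.7% (56.1 to 67.1) between 12 and 15 points, against 54.8% (49.7 to 59.8) of 389 windows of at least 15 points, 55.8% (46.8 to 64.5) of 129 windows of at least 20 points and 16 of 31 windows of at least 25 points. These are shares of 1 list, and the difference between the size classes was not tested.

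**Figure D1:**
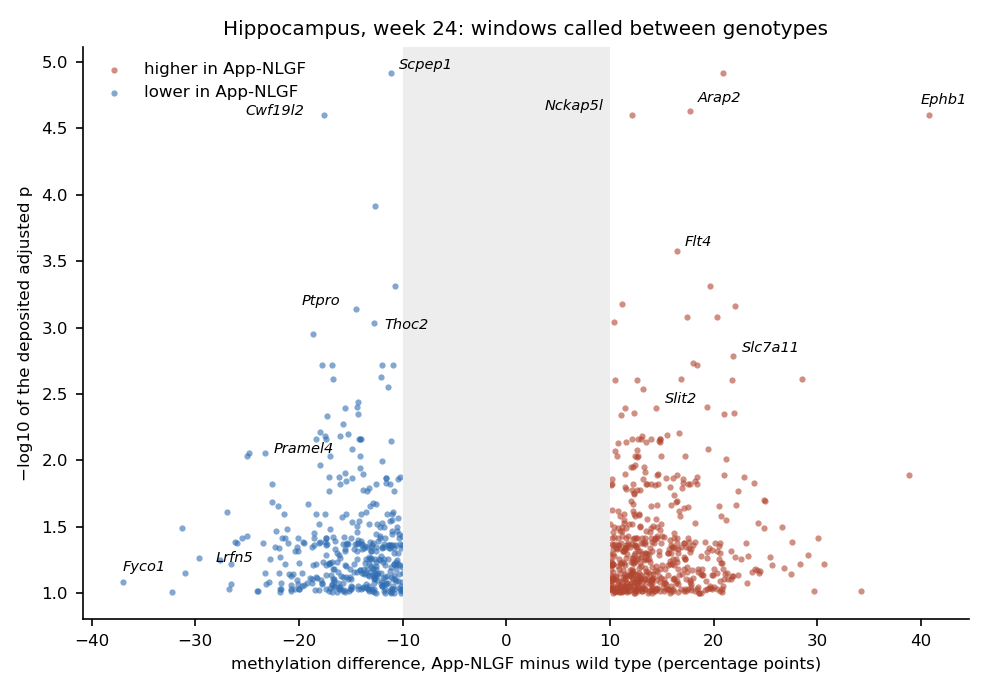
Each point is a called 1 kb window, placed by its methylation difference in percentage points (App-NLGF minus wild type) and by −log10 of the adjusted p in the authors' deposited table. Red points are the 556 windows higher in App-NLGF and blue points the 393 lower, the grey band holds no window because calls needed at least 10 points, and Fyco1 at -37.0 points, far to the left, lies low.

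Only 17 windows had an adjusted p under 0.001, 11 higher in App-NLGF and 6 lower. The smallest adjusted p was shared by a window 1.56 kb from Scpep1, a serine carboxypeptidase, at -11.1 points, and by a window in an unnamed gene model 56.1 kb from Gpm6a, a neuronal membrane glycoprotein, at 20.9 points, with 1.21e-05 for both in the authors' deposited table. Flt4, the vascular endothelial growth factor receptor of lymphatic vessels, had 16.4 points with an adjusted p of 0.000263 at its 3′ end in the authors' deposited table. Ptpro, a receptor tyrosine phosphatase that acts on Eph receptors, had -14.5 points (adjusted p 0.000722) in the authors' deposited table. By the same rule the authors' deposited table names Gkap1, a Golgi protein bound by a cGMP-dependent kinase, at -10.7 points, Tmem65, a mitochondrial membrane protein, at 11.2 points, and Armcx2, an X-linked armadillo-repeat protein, at 10.4 points. Their adjusted p-values were 0.000487, 0.000669 and 0.000907 in the authors' deposited table.

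Several of the largest differences lay away from named genes. Of 9 windows of at least 30 points, 5 higher in App-NLGF and 4 lower, Ephb1 and Fyco1 were the named genes that held one. A window on X, 129.0 kb from the nearest gene Ctag2, had 38.9 points (adjusted p 0.0129) in the authors' deposited table. A window 15.3 kb from Mme had -31.0 points (adjusted p 0.0702) in the authors' deposited table. Mme encodes neprilysin, a protease that degrades amyloid-beta; it was singled out after its value was seen and lies beyond the 10 kb used to assign windows to genes. Among named genes the larger increases in the authors' deposited table included Nptxr, the neuronal pentraxin receptor, at 23.2 points, Oxr1, an oxidation resistance gene, at 22.7 points, and Azgp1, a secreted lipid-mobilising glycoprotein, at 22.4 points. Larger decreases in the authors' deposited table included Cadm2, a synaptic cell adhesion molecule, at -23.5 points, the vomeronasal receptor Vmn2r79 at -23.3 points, Pramel4 at -23.2 points, the olfactory receptor Olfr1246 at -22.6 points and Myo16, a myosin of neurons, at -22.3 points. The receptor and Pramel families have many near-identical copies, so the alignment behind such a window is uncertain. Of 1428 olfactory receptor genes and pseudogenes 12 lay within 10 kb of a window (0.84%), and of 359 vomeronasal receptor genes 3 did (0.836%), beside 1.66% of all 49554 genes.

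The share of windows inside genes was close to the share of the genome inside genes. Coding genes held 386 windows (40.7%, 37.5 to 43.9), beside 40.7% of all 1 kb windows of the genome. A further 80 windows (8.4%) lay in noncoding genes or pseudogenes alone, beside 8.8% of the genome, and 483 (50.9%) lay outside every gene, beside 50.5%. Higher windows made up 55.2% of those in coding genes, 60.0% of those in noncoding genes alone and 61.1% of those outside genes. More than 10 kb from every gene lay 339 windows, 200 higher in App-NLGF and 139 lower. Along 316 windows in coding genes of known strand, 5 equal parts of the gene from its 5′ to its 3′ end held 75, 68, 57, 42 and 74 windows. Of these 42, 44, 35, 21 and 36 were higher in App-NLGF, which is 64.7% in the second part and 48.6% in the last.

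Windows lay inside genes of each length class at close to the share of the genome that the class covers, so the share of genes with a window grew with gene length. Genes of 500 kb or more held 7.5% of the windows, beside 7.4% of all 1 kb windows of the genome, and genes of 100 to 500 kb held 16.4%, beside 16.5%. Genes of 20 to 100 kb held 14.0%, beside 13.3%, and shorter genes held 2.7%, beside 3.8%. Within 10 kb of a window lay 526 of 21631 coding genes (2.43%), whose median length was 74.6 kb, beside 17.3 kb for all coding genes. A window lay inside 0.257% of the 11655 coding genes shorter than 20 kb and inside 1.81% of the 7549 genes of 20 to 100 kb. The share was 6.77% of the 2200 genes of 100 to 500 kb and 25.6% of the 227 genes of 500 kb or more. In genes of 500 kb or more 32 windows were higher in App-NLGF and 39 lower, so higher windows made up 45.1%, beside 57.7% of 156 windows in genes of 100 to 500 kb.

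**Figure D2:**
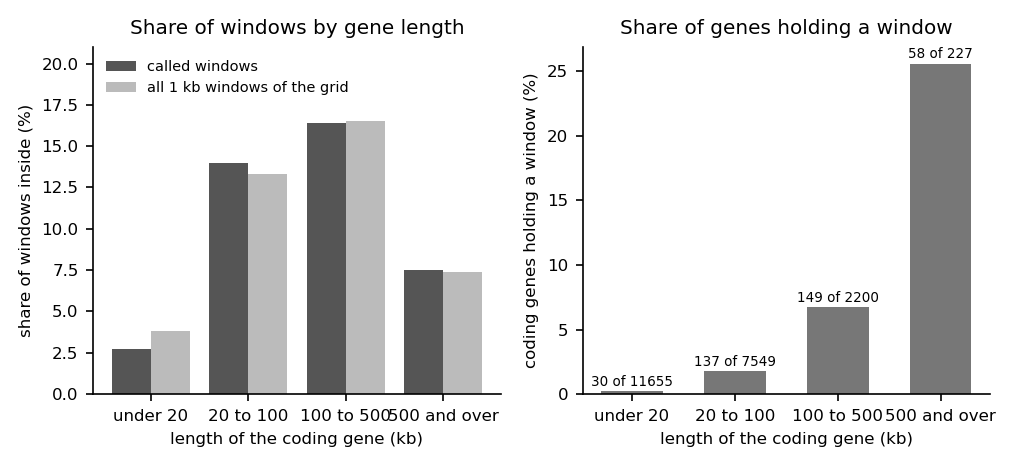
The left plot shows the share of the 949 called windows (dark bars) and of all 1 kb windows of the genome (light bars) that lay inside coding genes of each length class, in percent. The right plot shows the percent of the coding genes in each class that held a window, from 0.257% of genes under 20 kb to 25.6% of genes of 500 kb or more.

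The share of higher windows varied between chromosomes, a difference that was described and not tested. Windows per Mb ran from 0.261 on chromosome 17 to 0.444 on chromosome 5, around 0.369 overall. Higher windows outnumbered lower ones on 16 of 20 chromosomes. On X 52 of 69 windows were higher in App-NLGF (75.4%, 63.5 to 84.9), beside 57.3% (53.9 to 60.6) of 880 autosomal windows. Chromosome 1 had 42 of 56 windows higher (interval 61.6% to 85.6%). Chromosome 16, which carries App, had 13 of 37 higher (35.1%, 20.2 to 52.5), and chromosome 19 had 7 of 20 higher (35.0%, 15.4 to 59.2). In hippocampus at week 8, where 0.0318% of about 2330511 windows were called, 45.1% of 51 windows on X, 52.8% of 53 on chromosome 1 and 44.8% of 29 on chromosome 16 were higher in App-NLGF, against 55.3%, 54.7% and 55.0% on all other chromosomes. At week 3, where 0.044% of about 2325238 windows were called, 35.5% of 62 windows on X were higher, against 29.1% elsewhere, 24.7% of 81 on chromosome 1, against 29.9%, and 33.3% of 48 on chromosome 16, against 29.3%. In blood at week 24, where 0.0244% of about 2321287 windows were called, 94.1% of 68 windows on X were higher, against 81.0% elsewhere, 92.9% of 42 on chromosome 1, against 81.7%, and 82.1% of 28 on chromosome 16, against 82.6%. The week 24 differences on X were larger, with a median size of 17.0 points, against 13.9 points elsewhere. At week 8 the median size was 18.4 points on X, against 13.3 points elsewhere, and in blood at week 24 it was 15.7 points on X, against 13.7 points elsewhere. Males have a single X, and read depth on X was not analysed here.

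**Figure D3:**
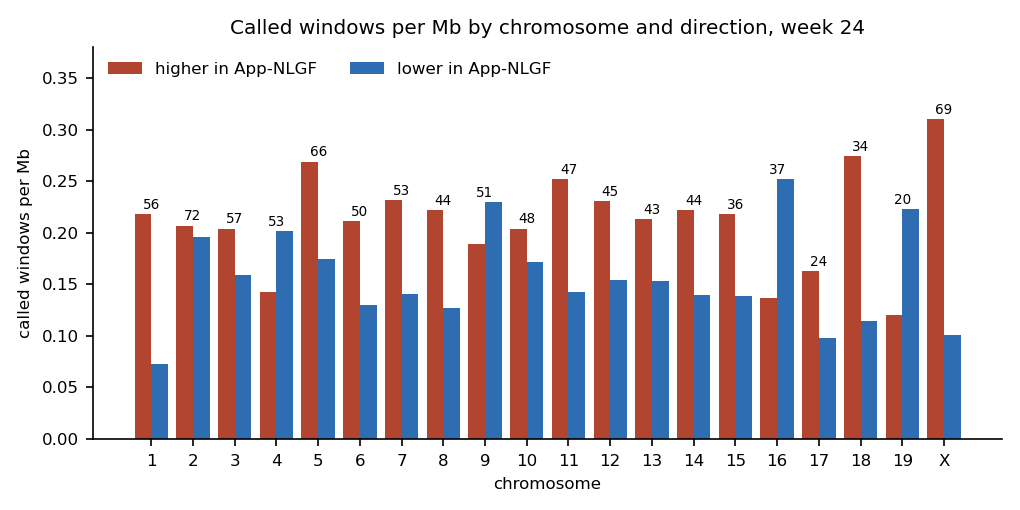
Bars give the called windows per Mb of each chromosome, red for windows higher in App-NLGF and blue for windows lower, and the number above each pair is the count of windows. Lower windows exceed higher ones on chromosomes 4, 9, 16 and 19, and X has the tallest red bar with 52 of its 69 windows higher.

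The edited gene itself held no called window. App spans chr16:84952666-85175255, and the nearest windows lay 0.6 Mb to one side with -13.4 points and 0.94 Mb to the other with -14.9 points, both outside named genes, in the authors' deposited table. The second carried an adjusted p, 0.00817, that the authors' deposited table ranks among the 87 under 0.01. Within 10 Mb of App there were 6 windows, the others being 20.2 points at 2.05 Mb, 11.6 points at 5.0 Mb, -13.3 points in Hunk, a hormonally regulated kinase, and -11.2 points in Morc3, a nuclear ATPase, in the authors' deposited table. Chromosome 16 as a whole held 0.389 windows per Mb at week 24, beside 0.369 over the genome. Hippocampus had 1 window within 1 Mb of App at week 3, 1 at week 8 and 2 at week 24. Within 10 Mb it had 10, 4 and 6. Blood had 0, 5 and 1 within 1 Mb at those ages, out of lists of 1153, 4526 and 567 windows. Differences between ages were not tested.

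Of 986 genes in 25 lists of pathways and cell types, 70 lay within 10 kb of a window (7.1%), beside 2.43% of all coding genes. Their 81 windows were 39 higher in App-NLGF (48.1%) and 42 lower, beside 58.6% higher in the whole list. List counts are set beside the number of members that the shares of all coding genes in the same length classes would give. That number is a description and not a test. For the 986 genes together it is 61.5, beside the 70 found.

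The counts for amyloid handling and Alzheimer risk were close to those at the shares of the genes' lengths. Of 25 genes of App processing and amyloid clearance 2 had a window, beside 1.1 at the shares of their lengths, and both were higher in App-NLGF. They were Lrp1, a receptor that takes up apolipoprotein E and amyloid-beta, at 14.4 points, and its relative Lrp1b at 13.5 points in the authors' deposited table. Of 49 risk genes 2 had a window, beside 2.5. These were Wwox, an oxidoreductase gene at a fragile site, at -13.4 points, and Unc5c, a netrin receptor, at 11.7 points in the authors' deposited table.

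Marker genes of glia, vessels and blood cells had at most 1 window in a list. None of 18 oligodendrocyte lineage genes and none of 17 vascular genes had one, beside 0.4 and 0.5 at the shares of their lengths. Of 37 microglial, complement and interferon genes 1 had a window, beside 0.6. It lay 4.01 kb from Irf1, a transcription factor of the interferon response, and none of the others, including Trem2, Cst7, Itgax and C1qa, had one. The authors' deposited table gives that window -17.4 points, and the named gene nearest to it was the microRNA gene Mir7671, 1.35 kb away. Of 16 astrocyte genes 1 had a window, beside 0.3, in Slc4a4, a bicarbonate transporter, with 16.2 points in the authors' deposited table. Of 24 blood cell genes 1 had a window, beside 0.4. Of 24 genes of excitatory neurons and hippocampal fields 3 had a window, beside 1.2. Rbfox1, a neuronal splicing factor, stood at 19.8 points, Grik4, a kainate receptor subunit rich in field CA3, at -11.9 points, and Zbtb20, a transcription factor of CA1 identity, at -10.1 points in the authors' deposited table. Of 38 genes of inhibitory neurons and GABA receptors 1 had a window, beside 1.7, in the receptor subunit gene Gabrb2, with -16.1 points in the authors' deposited table. None of 23 immediate early genes, 44 imprinted genes and 22 clock genes had a window, beside 0.5, 0.9 and 0.8.

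At excitatory synapses windows were of both directions. Windows lay near 8 of 50 genes for glutamate receptors and postsynaptic proteins, beside 4.3, with 3 higher in App-NLGF and 5 lower and none with an adjusted p under 0.01. The receptor genes Grik3 and Grm8 and the scaffold gene Homer2 stood at 17.3, 15.2 and 15.6 points in the authors' deposited table. Among scaffolds, Dlg1, which encodes SAP97, stood at -15.5 points, Dlg2, which encodes PSD-93, at -11.3 points, and Dlgap1, which links them to Shank proteins, at -11.2 points in the authors' deposited table. On the releasing side 1 of 46 presynaptic genes had a window, beside 2.9. It lay in Stxbp5, which encodes tomosyn, a brake on vesicle fusion, at -10.7 points in the authors' deposited table.

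Molecules that join the sides of the synapse held 10 windows in 7 of 48 genes, beside 4.3 genes, with 4 windows higher in App-NLGF and 6 lower. Nlgn1, a postsynaptic neuroligin, stood at -15.8 points in the authors' deposited table. Il1rapl1, an X-linked synapse organiser, had 2 higher windows of 16.8 and 12.2 points in the authors' deposited table. Lingo2 had 2 lower windows, at 0.02 and 0.04 of the way from its 5′ to its 3′ end, of -25.0 and -16.0 points in the authors' deposited table. The teneurin gene Tenm2 had a lower window of -13.9 points and a higher one of 10.7 points in the authors' deposited table. Of 42 contactin, IgLON, NCAM and DSCAM genes 4 had a window, beside 5.3. Cadm2 had 2 lower windows, the second of -11.8 points, while Cntn5, a contactin, had 15.0 points and Nfasc, the neurofascin of nodes and axon initial segments, had 11.4 points in the authors' deposited table. Of 48 cadherin genes 3 had a window, beside 4.4, and Pcdh15 had 1 window at -19.5 points and 1 at 16.1 points in the authors' deposited table.

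Axon guidance genes held the largest single difference of the list. Of 75 such genes 8 had a window, beside 4.5, with 4 windows higher in App-NLGF and 5 lower. Ephb1, an ephrin-B receptor, had 40.8 points with an adjusted p of 2.49e-05, and Slit2, a secreted repellent, had 14.5 points (adjusted p 0.00401) in the authors' deposited table. Robo2, a receptor of Slit proteins, stood at -10.8 points in the authors' deposited table. Neo1, a receptor of netrins and repulsive guidance molecules, stood at 17.7 points, and Ntng2, a membrane-anchored netrin relative, at -13.0 points in the authors' deposited table. Epha6 had 2 lower windows of -13.9 and -12.1 points, and Epha7 had 1 of -17.6 points, in the authors' deposited table. In this list the ephrin-A receptors were thus lower where called and Ephb1 higher, from 4 windows in 3 genes. At week 8 Epha6 had windows of both directions, at 23.5 and -12.3 points, in the authors' deposited table.

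Among ion channels 6 of 65 potassium channel genes had a window, beside 3.8, with 4 windows higher in App-NLGF and 3 lower. Kcnma1, the large-conductance calcium-activated channel, had -24.0 and 18.8 points in different parts of the gene in the authors' deposited table. Kcnb2, a delayed rectifier, and Kcnip4, an auxiliary subunit of A-type channels, stood at -15.7 and -13.7 points in the authors' deposited table. Kcnn2, a small-conductance calcium-activated channel, and Kcnt1, a sodium-activated channel, stood at 13.1 and 12.6 points in the authors' deposited table. Of 38 calcium and sodium channel genes 1 had a window, beside 2.8, in Cacna1e, with 23.3 points in the authors' deposited table. Of 35 phosphodiesterase and adenylyl cyclase genes 1 had a window, beside 2.6, in Adcy7, with 10.2 points in the authors' deposited table. It lay at 0.99 of the way from the 5′ to the 3′ end of Adcy7, and the same window was also assigned to Brd7.

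All 4 windows near genes of autophagy, endolysosomes and insulin signalling were lower in App-NLGF, from 4 of 49 genes, beside 1.6. They were Fyco1, an adaptor that links autophagosomes to kinesin, at -37.0 points, Atg13, a subunit of the kinase complex that starts autophagy, at -21.4 points, Akt2 at -15.5 points and Igf1r, the insulin-like growth factor receptor, at -11.1 points in the authors' deposited table. Their adjusted p-values were 0.0823, 0.0382, 0.0425 and 0.0751 in the authors' deposited table. In the whole list 393 of 949 windows were lower, and agreement in direction among these 4 was not tested. Of 56 regulators of DNA methylation and chromatin 3 had a window, beside 2.2. The methyl-CpG binding family member Mbd5 stood at -17.9 points with an adjusted p of 0.0109, Mbd2 at 12.3 points and the remodeller Chd6 at 10.5 points in the authors' deposited table. Of 72 developmental transcription factors 2 had a window, beside 3.1, namely Sox5 at 14.1 points and Hoxa3 at 11.0 points in the authors' deposited table. Of 43 giant genes and genes at fragile sites 16 had a window, beside 10.1, with 11 windows higher in App-NLGF and 9 lower. Among them Auts2, a neurodevelopmental gene, stood at -17.0 points (adjusted p 0.00928) in the authors' deposited table.

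**Figure D4:**
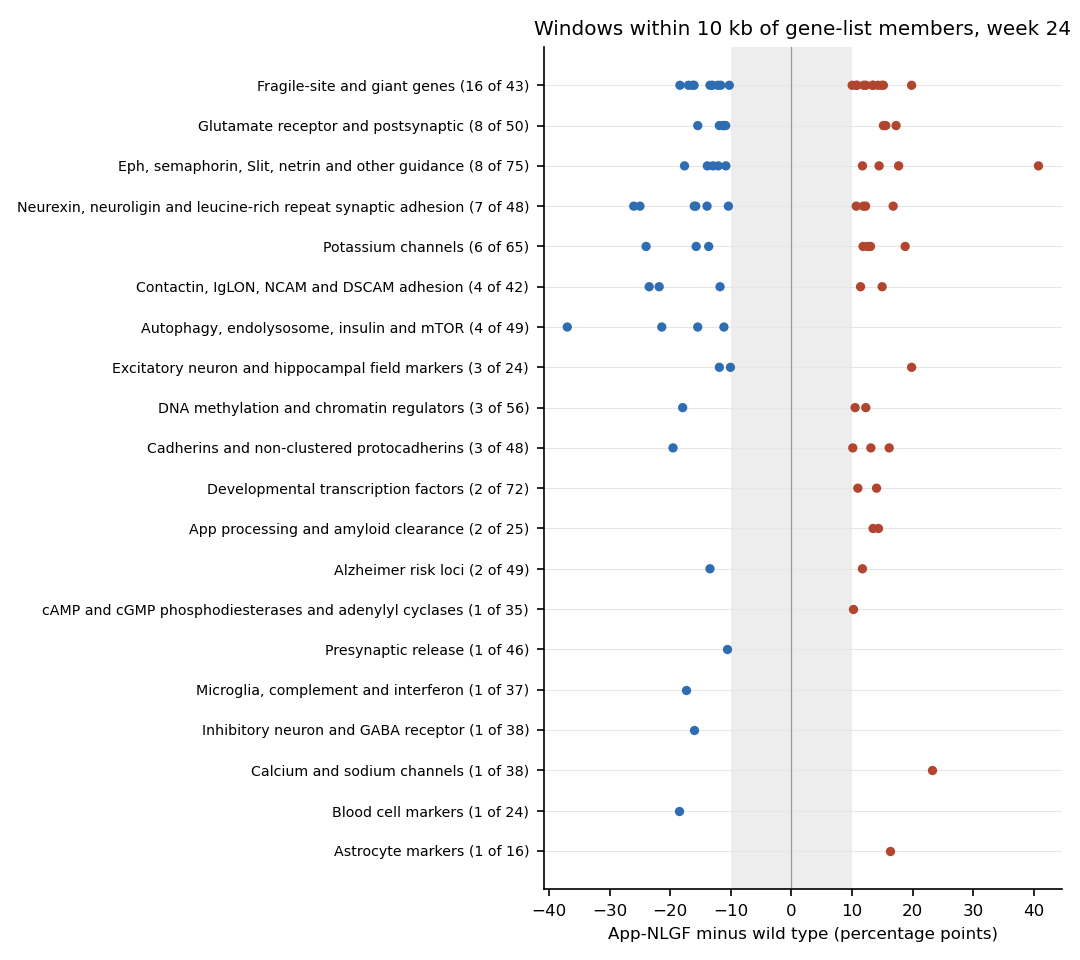
Each point is a window within 10 kb of a member of the list named at the left, placed by its difference in percentage points (App-NLGF minus wild type), red where higher and blue where lower. Numbers in brackets give the members with a window and the members in the annotation, and lists with no window are left out. A gene in more than 1 list appears in each. All 4 windows of the autophagy and insulin list lie at the left of zero, and agreement in direction was not tested.

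Named genes with 2 or more windows numbered 24, of which 22 were coding. Genes within 10 kb of any window, named or not, numbered 825 of 49554 (1.66%). Lengths of the 24 ran from 22.5 kb (Slc25a20) to 3171.1 kb (Igk), and the share of genes with a window grew with length. The windows of the 24 shared a direction in 14 genes, 9 higher in App-NLGF and 5 lower, and were of both directions in 10. In the whole list 58.6% of windows were higher, and agreement in direction was not tested. The immunoglobulin heavy chain locus Igh had 4 windows over 2751.2 kb, all higher, at 17.8, 13.5, 23.9 and 12.4 points in the authors' deposited table. The light chain locus Igk had 2 higher windows of 13.9 and 12.5 points in the authors' deposited table. Elsewhere both loci had windows of both directions. Igh had -17.1, 16.1 and 18.3 points in blood at week 24 in the authors' deposited table. Igk had 19.6 and -19.6 points in hippocampus at week 8 in the authors' deposited table. On X, Eda, a ligand of the tumour necrosis factor family, had 16.8 and 19.4 points, and Cfap47, a gene of cilia and flagella, had 24.4 and 21.8 points in the authors' deposited table. Ppargc1a, the coactivator of mitochondrial biogenesis PGC-1alpha, had a higher window of 17.6 points with an adjusted p of 0.0225 and a lower one of -15.6 points (adjusted p 0.0379) in the authors' deposited table. Macrod2, a hydrolase of ADP-ribose marks at a fragile site, had 2 higher windows and 1 lower. A direction for the gene as a whole cannot be read in the 10 genes of both directions.

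The other ages and blood have libraries of their own, so a window called again there is a separate measurement. The labels do not say whether blood and hippocampus came from the same animals. Exactly the same window was called once in hippocampus at week 3, which is 0.105% of the week 24 windows. The week 3 list covers 0.0397% of all 1 kb windows of the genome. For week 8 there were 2 such positions (0.211%), beside 0.0288%, and for blood at week 24 none, beside 0.022%. The week 3 match, chrX:131791001-131792000, was 24.3 points at week 24 and 26.2 points at week 3, with adjusted p-values of 0.0299 and 0.00649, in the authors' deposited table. A week 8 window 3 kb away from it had 14.8 points in the authors' deposited table, so windows at this place were higher in App-NLGF at all 3 ages. It lies 55.8 kb from the nearest annotated gene, a pseudogene, and was singled out after its values were seen. At week 8 a window inside Armh4, a membrane protein gene, was again called, with 16.6 points at week 24 and 13.6 points at week 8 in the authors' deposited table. A window at chr1:18348001-18349000, outside genes, was 12.7 points at week 24 and -11.4 points at week 8 in the authors' deposited table.

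Within 5 kb, 4 week 24 windows (0.421%) had a week 3 neighbour, beside 0.436% of all 1 kb windows of the genome, with 2 pairs of the same direction and 2 opposite. For week 8 there were 6 (0.632%), beside 0.316% of the genome, with 5 pairs of the same direction and 1 opposite. In blood at week 24 there were 2 (0.211%), beside 0.242%. Dennd1a, an endocytic regulator, had -12.4 points at week 24 and -32.9 points at week 8, 3 kb apart, in the authors' deposited table. Il1rapl2 on X had 17.5 points in hippocampus and 22.1 points in blood in adjoining windows at week 24 in the authors' deposited table. Smarca1, a chromatin remodeller, had -14.4 points in hippocampus and 12.4 points in blood in adjoining windows in the authors' deposited table.

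By gene rather than by window, 37 of the 526 coding genes (7.03%) also had a week 3 window, or 6.58% of the 562 genes of that age, beside 2.6% of all coding genes with a week 3 window. For week 8 the count was 35 (6.65%, or 9.31% of 376 genes), beside 1.74% of all coding genes. For blood at week 24 it was 23 (4.37%, or 8.52% of 270 genes), beside 1.25%. These genes were long, with a median of 421.4 kb for week 3, 436.2 kb for week 8 and 482.4 kb for blood. Among coding genes of 500 kb or more, 16 of 59 with a week 24 window also had one at week 3 (27.1%), beside 28.6% of all genes of that length, and 15 had one at week 8 (25.4%), beside 22.0%. Among genes of 100 to 500 kb the share was 8.02%, beside 7.41%, for week 3 and 10.5%, beside 6.18%, for week 8. For blood at week 24 the share was 18.6%, beside 17.2%, among genes of 500 kb or more and 6.17%, beside 4.05%, among genes of 100 to 500 kb. Of the 37 genes shared with week 3, 13 had the same direction, 20 the opposite and 4 windows of both, in a list of which 29.5% was higher in App-NLGF. Of the 35 shared with week 8, 18 had the same direction, 14 the opposite and 3 windows of both.

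Coding genes with a window at all 3 hippocampal ages numbered 3. Nell1, a secreted protein of bone and neural tissue, had 1 called window at each age, all lower in App-NLGF. They stood at -19.0 points at week 3, -26.8 points at week 8 and -11.99 points at week 24 in the authors' deposited table. The week 3 and week 24 windows of Nell1 lay 1 kb apart. Its week 8 window began at chr7:50343001, far from the week 24 window at chr7:50691001. Pcdh9, a protocadherin of neurons, had 1 higher window at each age, with 13.4 points at week 3, 20.7 points at week 8 and 13.1 points at week 24 in the authors' deposited table. These lay at different places of a gene of 879.1 kb, beginning at chr14:93784001, chr14:93869001 and chr14:93482001. A direction held at the same position over the ages is therefore not shown. Near St8sia2, which adds polysialic acid to the neural cell adhesion molecule, windows had -12.6 points at week 3, -14.9 points at week 8 and 11.2 points at week 24 in the authors' deposited table. Genes shared with week 8 alone in the same direction included Neo1 at 17.7 points at week 24 and 12.6 points at week 8, and the ketone body enzyme gene Oxct1 at -15.0 and -14.6 points, in the authors' deposited table. Those shared with week 3 alone included Dagla, which makes the endocannabinoid 2-arachidonoylglycerol, at -14.1 points at week 24 and -17.8 points at week 3 in the authors' deposited table.

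**Figure D5:**
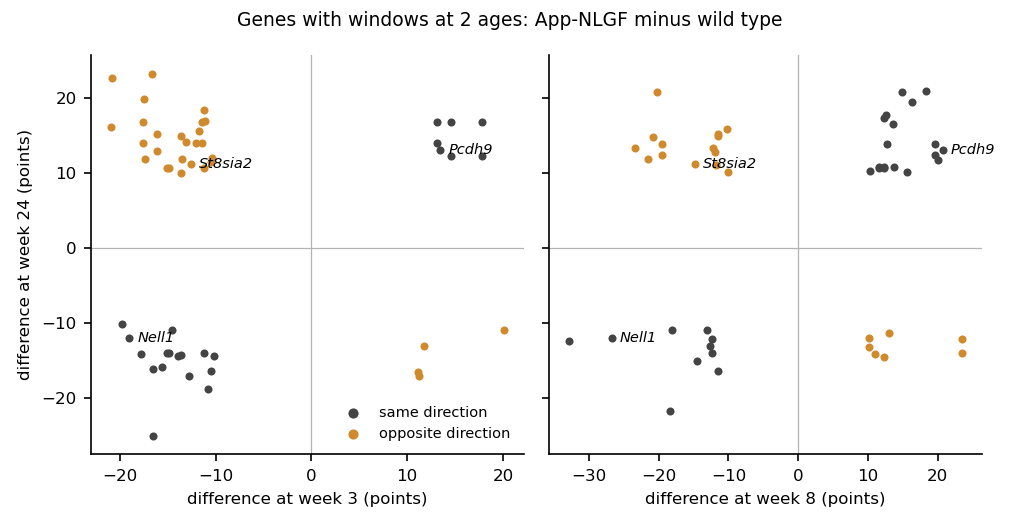
Each point is a pair of windows in or within 10 kb of the same named gene, 1 at week 24 (vertical axis) and 1 at week 3 (left plot) or week 8 (right plot), both axes in percentage points of App-NLGF minus wild type. Dark points have the same direction at both ages and orange points the opposite. The called windows of Pcdh9 are higher and those of Nell1 lower at all 3 ages, while those of St8sia2 are higher at week 24 and lower before. The paired windows of these 3 genes lie at different positions.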

How the data were processed

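Per the submitters' processing notes, the reads went through FastQC, Trim Galore, Bismark and methylKit on mm10. Tool versions, the coverage filter and the adjustment method were not given in the labels. Per the labels' protocols, sheared hippocampal DNA was made into libraries, converted with bisulfite and amplified, and incomplete conversion would read as methylation. The p-values and adjusted p-values are the authors' own, as deposited, and so is the methylation difference in percentage points. No column of per-library values was used (0 columns), so replicates could not be compared, and well and thinly covered windows look the same.

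The number of windows tested was recovered by assuming Benjamini-Hochberg adjustment, under which p divided by adjusted p and multiplied by that number is a whole rank. Of 512 distinct adjusted p-values at week 24, 81.1% gave a whole rank within 0.02, and the steps were tested on simulated data. Whole ranks do not by themselves show which method of adjustment was used. The numbers of windows tested, and the shares of them called, therefore rest on this assumption. Windows were assigned to genes they overlapped or lay within 10 kb of, in the RefSeq table of GRCm38.p6, with 49554 genes on X and the autosomes. Gene starts came from the RefSeq promoter table, which covers 17274 coding genes. The genome background counted all 1 kb windows after the first 3 Mb of each chromosome, covered by reads or not. Exact 95% Clopper-Pearson intervals are for the list of windows. A gene's printed value is that of 1 window.

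Named genes were the 10 largest increases and decreases and the 10 smallest adjusted p among named genes, members of 25 lists, genes with 2 or more windows, genes with windows at other ages or in blood, genes with a start within 1 kb, and windows within 10 Mb of App. From these the text gives a part, and a few list members with a window are not reported here. The Spata4, Slc7a9, Plb1 and Kcnip3 promoters, the gene families and Mme were chosen after their values were seen. The members and lists were chosen with earlier results of these data known. Alternatives changed the thresholds, the distances and the genes counted. Python 3.11.15 with pandas 2.3.3, numpy 2.4.6 and scipy 1.17.1 was used.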

Additional observations from a re-analysis of the deposited data

How the results depend on the processing

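The 949 windows became 423 at an adjusted p under 0.05, 87 under 0.01 and 389 at 15 points or more. Joining windows that touch, or lie within 10 kb, left 949 and 946 regions. The share higher in App-NLGF, 58.6%, was 54.8% at 15 points or more, and under the other thresholds, with 1 window per region, without X and without chromosome 16 it stayed within its interval. The median size, 14.0 points, was 14.24 under an adjusted p of 0.05 and 14.85 under 0.01. The share inside genes, 49.1%, was 40.7% when coding genes alone counted. The 825 genes with a window became 477 for gene bodies alone, 2203 within 50 kb and 526 for coding genes alone. Windows called again within 5 kb and 10 kb numbered 4 and 10 at week 3, 6 and 8 at week 8, and 2 and 8 in blood. The 10 kb counts were 1.05%, 0.843% and 0.843% of the list, beside 0.832%, 0.602% and 0.461% of all 1 kb windows. Windows at gene starts, 35 within 1 kb, were 7 covering a start and 58 within 2 kb. Of the 25 lists 24 kept their count within 1.5 times for gene bodies alone, the exception being the microglial list. These 24 include the 5 lists with no window, whose count could not change. At an adjusted p under 0.01, which left fewer windows, the 20 lists with a member near a window all moved, and the other 5 had no such member to begin with. Leaving out libraries was not run, since no value per library was used here. No paired analysis was possible because the table used holds no value for any single library. Read depth limits each difference to an unknown degree.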
